A study of Mus musculus with 8 samples.

Results

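The genes examined here encode the macrophage lipid droplet coat protein perilipin 2 and the enzymes and regulators that break down or make the droplet's triglyceride. They are *Plin2* (listed on the chip under its older name *Adfp*), *Pnpla2*, *Abhd5*, *G0s2*, *Lipe*, *Mgll*, *Dgat1* and *Dgat2*, and every probe annotated to one of these 8 symbols was taken. The rule gave 12 probes out of 45281 on the chip. The samples were thioglycollate-elicited peritoneal macrophages, cells drawn into the abdominal cavity by an irritant broth, from C57/BL6 mice aged 8 weeks. In 4 samples the cells were exposed to 120 μg/ml of Ac-LDL for 24 h, and the 4 control samples were mock treated for the same time. Ac-LDL is acetylated low-density lipoprotein, a modified lipoprotein that scavenger receptors take up and that loads macrophages with cholesterol. According to the methods, macrophages were adherent cells grown in medium conditioned by L-929 cells, and both groups therefore had this background. The labels call the samples of each group biological replicates 1 to 4 and do not say whether 1 replicate is 1 mouse or a pool of mice, so that P values measure the spread between these samples.

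A lipid droplet is a core of neutral lipid, such as cholesteryl ester and triglyceride, under a single phospholipid layer that carries coat proteins such as the perilipins. Droplet triglyceride is cut in steps by adipose triglyceride lipase, hormone-sensitive lipase and monoglyceride lipase, and the first of these is switched on by the coactivator ABHD5 and held back by the inhibitor G0S2. The last step of triglyceride synthesis is carried out by either of 2 unrelated acyltransferases, DGAT1 and DGAT2. A macrophage filled with such droplets is the foam cell of the atherosclerotic plaque, and perilipin 2 is the coat protein usually used to recognize it.

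Each array reported a mean bead intensity for every probe and a detection P value that ranks the probe against the negative controls of that array. Between 16679 and 17439 probes (36.8% to 38.5%) were detected per array at a detection P value of at most 0.05, and the median probe rested on 43 or 44 beads. Intensities were background-corrected, quantile normalized and put on the log2 scale, and limma's test was run on the 17122 probes that 4 or more of the 8 arrays detected. A probe was called when its Benjamini-Hochberg adjusted P value over all of these was under 0.05. The deposited array names share one number for replicates 1 and 2 of both groups and another for replicates 3 and 4. Each number is read here as a slide, and the slide and those cultures cannot be told apart. As a check of the labelled cell type, all 8 macrophage markers were detected and tested. Their summed normalized intensity was 42495 to 49397 on control and 44844.5 to 50091 on Ac-LDL arrays. Most of this sum was from *Lyz2*, with 30883 to 33052 on control and 33052 to 33402 on Ac-LDL arrays. Some single markers varied more, as *Adgre1* had 995 to 3061 and *Mrc1* 575 to 2054 on control arrays. The sum therefore does not show how even the single markers were. Of 8 adipocyte markers only *Lipe*, itself one of the genes described, was tested, and *Adipoq*, *Cfd*, *Cidec*, *Fabp4* and *Plin1* were detected on no array. For an undetected gene, a missing transcript and a weak probe cannot be told apart. The summed normalized intensity of the adipocyte markers was 171 to 179 on control and 171 to 193 on Ac-LDL arrays. Most of it is the floor of the scale, since *Cidec*, detected on no array, had 19.0 to 20.7. The highest single value was 35.9, of *Lipe* on an Ac-LDL array, so that this sum does not measure an adipocyte level. The summed normalized intensity of the neutrophil markers, most of it from *S100a8*, was 640 to 698 on control and 735 to 808 on Ac-LDL arrays. *S100a8* was not called (log2 fold change 0.24, adjusted P = 0.845 by limma), and 3.8% of all tested probes likewise had groups without overlap. The part of these markers in the values below was not tested. 4 of the 5 neutrophil markers on the chip (*Camp*, *Mpo*, *Ngp* and *S100a9*) were detected on no array. All 6 fibroblast markers were tested as well, with a summed intensity of 10548 to 14517 on control and 11000 to 13506 on Ac-LDL arrays. On control arrays the fibroblast marker *Dcn* had 7809 to 10985, beside 7961 to 9248 for the macrophage marker *Cd68*. Further, 3 B cell markers were tested, with sums of 166 to 431 on control and 179 to 318 on Ac-LDL arrays. All values are of whole cultures, in which fewer cells of a kind and less RNA per cell cannot be told apart.

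*Plin2* and *Abhd5* are shown by sequence because they were the only tested genes of the set whose Ac-LDL array lay on the same side of the control array in all 4 replicate pairs. The first 30 bases of the 50-base probe that measured each one, as deposited, were:

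Plin2 probe: agaaaattcagggtgctcaggataagctct

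Abhd5 probe: ggtagaacatttgtgcaggactcttacttg

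The probe of *Plin2* (ILMN_1222246) starts at position 950 of NM_007408.3 and was placed by the deposited annotation on the minus strand of chromosome 4, from 86304532 to 86304581. That of *Abhd5* (ILMN_2739295) starts at position 2817 of NM_026179.2, on the plus strand of chromosome 9 from 122290310 to 122290359. The annotation names no genome build for these positions, and they cannot be set against the promoter positions that follow. Those come from RefSeq on GRCm38.p6 and cover the 250 bases just before the transcription start, written in the direction of the gene. The *Plin2* window is chr4:86670060-86670309 on the minus strand and the *Abhd5* window is chr9:122351366-122351615 on the plus strand. Capitals mark TGACCT, which is AGGTCA on the opposite strand, the half-site shared by many nuclear receptors that sense lipids.

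Plin2 promoter: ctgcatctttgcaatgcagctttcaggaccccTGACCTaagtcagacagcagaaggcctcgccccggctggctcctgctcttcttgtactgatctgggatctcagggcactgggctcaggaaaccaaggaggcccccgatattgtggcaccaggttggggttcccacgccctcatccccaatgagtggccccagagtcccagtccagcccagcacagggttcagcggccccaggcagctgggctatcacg

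Abhd5 promoter: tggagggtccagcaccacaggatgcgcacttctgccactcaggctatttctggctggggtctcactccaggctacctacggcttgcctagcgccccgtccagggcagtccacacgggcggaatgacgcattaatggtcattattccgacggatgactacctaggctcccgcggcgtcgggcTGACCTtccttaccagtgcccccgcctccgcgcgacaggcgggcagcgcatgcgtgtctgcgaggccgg

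The marked bases lie 218 to 213 bases before the start of *Plin2* and 69 to 64 bases before that of *Abhd5*. Among all 32851 promoter windows of this length, 14.0% held AGGTCA on either strand, so that a match is a common feature and does not show a bound site. Windows were at hand for 6 of the 8 genes, 8 windows in all, and the genes named only are *Dgat1* and *Dgat2*. None of the 8 windows held the half-site repeated directly with 1 base between (0.0335% of all windows) or with 4 bases between (0.0152%), and any such repeat also counts as a single half-site. The E-box CACGTG stood 44 to 39 bases before one start of *Mgll* and 155 to 150 bases before one start of *Lipe*, against 6.02% of all windows. Neither the cAMP response element TGACGTCA (1.55% of all windows) nor the palindrome TTGCGCAA (0.164%) was found in the 8 windows. A window without a match says only that these letters are not in it.

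None of the genes passed the test. 6 of the 8 genes were detected well enough to be tested, and 0 of these 6 were called, against 0.0409% of all tested probes (7 probes). When the replicate number was made a block, 0 of 6 were called against 0.444% of all probes. A block for the slide gave 0 of 6 against 0.321%. In 0 of the 6 genes were the 2 groups free of overlap, against 3.8% of all probes. At an unadjusted P value under 0.05 the fit without a block found 1 of the 6 genes (*Plin2*) against 5.2% of all probes, and the replicate block found 2 (*Plin2* and *Abhd5*) against 13.8%. By the methods' t-test, 2 of the 6 genes had an unadjusted P value under 0.05 against 6.07% of all probes, and 0 of all probes were called after adjustment. The log2 fold changes, Ac-LDL over control, ran from -0.20 to 0.32 with a median of 0.07, 4 above and 2 below 0, where the median of all tested probes was 0.00122 and 50.4% of them were above 0. The 95% intervals of the 5 genes detected on all 8 arrays lay between 0.694-fold and 1.52-fold on this scale, which leaves out a doubling or a halving of the normalized signal but not smaller differences, and the offset of 16 makes folds of dim probes smaller than those of the transcript. *Lipe* stood too near the floor of the scale for a halving to be seen.

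**Figure D1:**
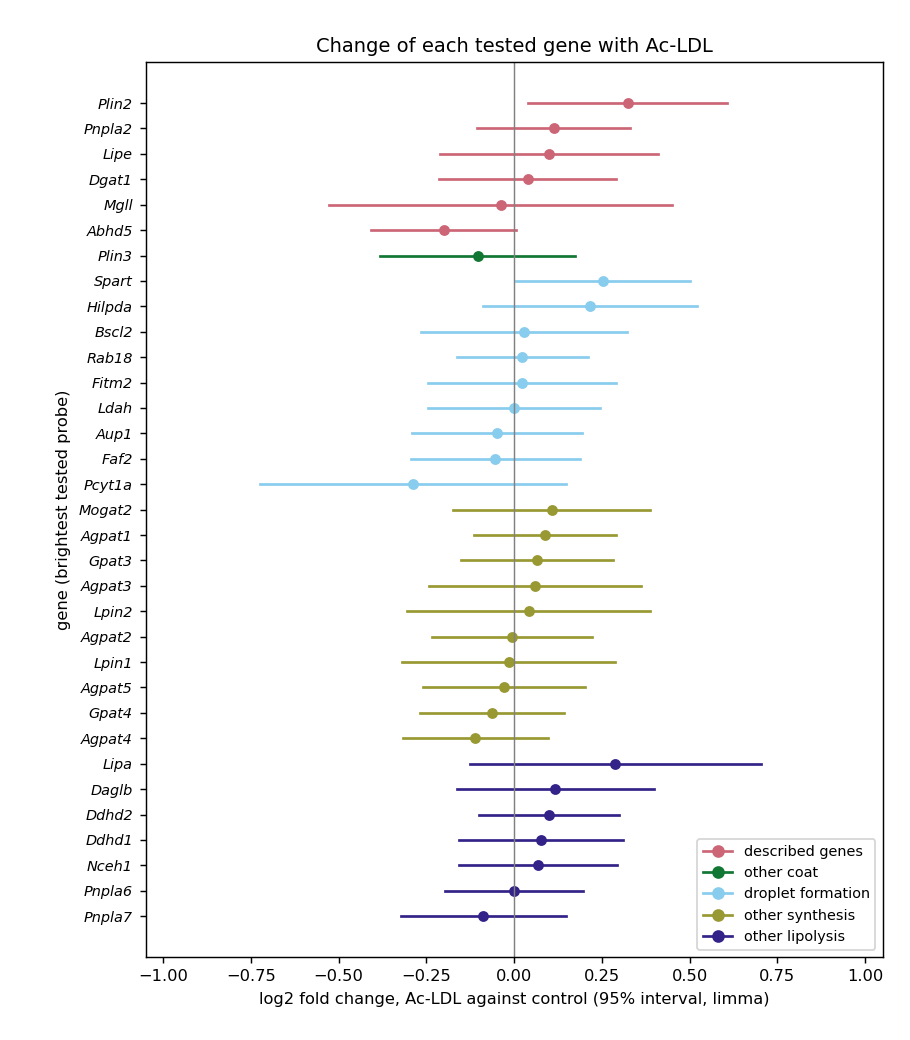
Log2 fold change of each tested gene, Ac-LDL over control, with its 95% interval from limma (4 against 4 arrays, brightest tested probe), on a linear axis. The 6 genes described here are on top and 27 other lipid droplet genes follow by list; the points lie between -0.29 and 0.32, and the intervals of *Plin2* and *Spart* are the ones that do not reach 0 before adjustment.

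*Plin2*, the coat protein, had the highest log2 fold change of the set. Its bead intensity before normalization was 2902, 2473, 2050 and 2250 on control arrays 1 to 4 and 2448, 2866, 2744 and 2672 on Ac-LDL arrays 1 to 4. The normalized log2 intensity was 11.30, 11.40, 10.89 and 10.94 on the control arrays and 11.38, 11.55, 11.45 and 11.46 on the Ac-LDL arrays. The 4 Ac-LDL arrays lay close together, whereas the control arrays fell into a higher pair on the first slide and a lower pair on the second. The groups overlapped through 1 array, since Ac-LDL replicate 1 lay just under control replicate 2. Control arrays had a mean of 11.14 ± 0.25 (SD, n = 4) and Ac-LDL arrays one of 11.46 ± 0.07 (SD, n = 4). The log2 fold change was 0.32 (standard error 0.13, 95% interval 0.04 to 0.61), which is 1.25-fold with an interval of 1.03 to 1.52. This did not pass the test over all probes (unadjusted P = 0.0299, adjusted P = 0.887 by limma), and its log2 fold change ranked 437 among the 17122 probes. The adjusted P value by limma was 0.243 with the replicate block and 0.246 when slide was the block. An exact two-sided permutation test of the 8 arrays gave P = 0.0571, where 0.0286 is the smallest value that 4 arrays against 4 allow. That test left out the replicate pairs and the slides.

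Within the replicate pairs, normalized *Plin2* was higher with Ac-LDL by 0.08, 0.15, 0.55 and 0.51 on the log2 scale for replicates 1 to 4. Of all probes, 11.5% were likewise higher in all 4 pairs. Before normalization the sign was the opposite in the first pair, where the control array also had the largest number of detected probes of the 8. The difference was 0.11 on the first slide and 0.53 on the second, where the control level was lower. The difference between the slides was 0.42 (unadjusted P = 0.0244, adjusted P = 0.560 by limma), and 0% of all probes passed this test of the interaction. On single arrays the *Plin2* intensity rested on 30 to 44 beads, and the standard error over beads was 3.84% to 6.17% of it.

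Of the 8 coat genes on the chip, *Plin2* and *Plin3* were the ones tested. *Plin3* encodes a perilipin that shuttles between the cytosol and small new droplets. Control arrays averaged 9.47 ± 0.21 (SD, n = 4) and Ac-LDL arrays 9.37 ± 0.15 (SD, n = 4) on the log2 scale, a log2 fold change of -0.10 (adjusted P = 0.987 by limma). *Plin1*, *Plin4*, *Plin5*, *Cidea* and *Cidec*, coat proteins known from adipocytes, heart and brown fat, were detected on none of the 8 arrays, and *Cideb* on 1. The chip therefore followed the droplet coat of these cultures through 2 perilipins, and which cells their signal came from was not tested.

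**Figure D2:**
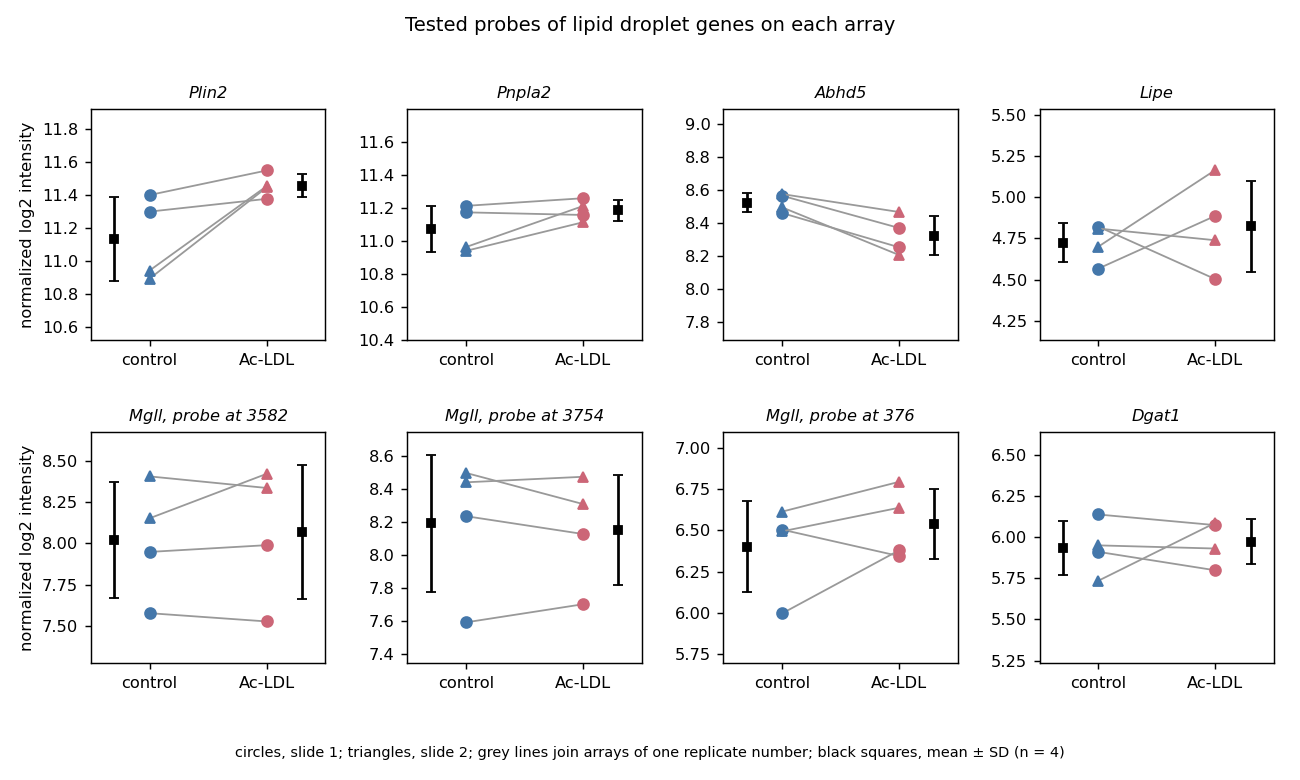
Normalized log2 intensity of the 8 tested probes on each array, control in blue and Ac-LDL in red, each panel on its own axis of equal span (log2 units). Circles are the first slide and triangles the second, grey lines join the arrays of one replicate number, and black squares with bars are the mean and SD of 4 arrays. In all 4 lines *Plin2* is higher and *Abhd5* lower at the Ac-LDL end, with overlap of the groups in both, while the circles and triangles lie apart in the *Mgll* probes at positions 3582 and 3754.

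*Pnpla2* encodes adipose triglyceride lipase, which removes the first fatty acid from a triglyceride. Its normalized log2 intensity (ILMN_2687745, position 1640 of NM_025802.2) was 11.21, 11.17, 10.94 and 10.96 on control arrays 1 to 4 and 11.26, 11.16, 11.11 and 11.21 on Ac-LDL arrays 1 to 4. The 2 control arrays of the second slide were the lowest of the 8, and the groups overlapped. The log2 fold change was 0.11 (standard error 0.10, 95% interval -0.10 to 0.33), 1.08-fold, with an adjusted P value of 0.978 by limma and an exact permutation P of 0.286. It was above 0 in 3 of 4 pairs, at 0.02 on the first slide and 0.21 on the second. Before normalization the bead intensity was 2745, 2099, 2100 and 2276 on control arrays 1 to 4. On Ac-LDL arrays 1 to 4 it was 2249, 2191, 2178 and 2252, lower than the control in pairs 1 and 4.

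*Abhd5*, also known as CGI-58, encodes the coactivator that adipose triglyceride lipase needs for full activity, and it had the lowest log2 fold change of the set. Its normalized log2 intensity was 8.56, 8.46, 8.57 and 8.49 on control arrays 1 to 4 and 8.37, 8.25, 8.47 and 8.20 on Ac-LDL arrays 1 to 4. Control arrays averaged 8.52 ± 0.06 (SD, n = 4) and Ac-LDL arrays 8.32 ± 0.12 (SD, n = 4). The groups overlapped by a narrow margin, with Ac-LDL replicate 3 just above control replicate 2. The log2 fold change was -0.20 (standard error 0.09, 95% interval -0.41 to 0.01), 0.870-fold with an interval of 0.754 to 1.00, and did not pass the test (unadjusted P = 0.0552, adjusted P = 0.946 by limma). With the replicate block the 95% interval was -0.38 to -0.02, the unadjusted P value 0.0316 and the adjusted P value 0.316, and with the slide block the adjusted P value was 0.389. The exact permutation test gave P = 0.0571.

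In the 4 replicate pairs, *Abhd5* differed by -0.20, -0.21, -0.11 and -0.29, and 10.3% of all probes were likewise lower in every pair. Its difference was -0.20 on either slide, and the slides themselves differed by 0.02 (adjusted P = 0.867 by limma). *Abhd5* and *Plin2* thus differed in how even their values were between slides, but the difference between these 2 genes was not tested.

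*G0s2* encodes the small protein that binds and inhibits adipose triglyceride lipase. Its 1 probe was detected on 0 of the 8 arrays. Its bead intensity was 37.5 to 46.8 on control and 40.6 to 44.8 on Ac-LDL arrays, with detection P values from 0.153 to 0.666, under the lowest intensity of a detected probe on these arrays (48.4 to 53.8). The comparison therefore gives no value for this inhibitor, and a low level of its transcript would not have been detectable.

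*Lipe* encodes hormone-sensitive lipase, which cuts diglycerides and, in macrophages, also cholesteryl esters. Of its 3 probes, 1 (ILMN_2742636, position 1950 of NM_010719.2) was detected on 4 of 8 arrays, 2 in each group, and the other 2 on none. The normalized log2 intensity of that probe was 4.57, 4.82, 4.81 and 4.70 on control arrays 1 to 4 and 4.89, 4.50, 4.74 and 5.17 on Ac-LDL arrays 1 to 4. These values stood at the edge of detection, with bead intensities from 44.4 to 59.6, and the highest and the lowest array were both Ac-LDL. The log2 fold change was 0.10 (standard error 0.14, 95% interval -0.21 to 0.41, adjusted P = 0.989 by limma), and without the pair of replicate 4 it was -0.02.

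*Mgll* encodes monoglyceride lipase, which completes the breakdown of triglyceride and also degrades the endocannabinoid 2-arachidonoylglycerol. It was the one gene of the set with several tested probes, 3 in all. The brightest (ILMN_2700408, position 3754 of NM_011844.3) had a normalized log2 intensity of 7.59, 8.23, 8.50 and 8.44 on control arrays 1 to 4 and 7.70, 8.13, 8.31 and 8.47 on Ac-LDL arrays 1 to 4. Replicate 1 was the lowest array of either group, and the groups covered nearly the same range. Control arrays averaged 8.19 ± 0.42 (SD, n = 4) and Ac-LDL arrays 8.15 ± 0.33 (SD, n = 4), a log2 fold change of -0.04 (95% interval -0.53 to 0.45, adjusted P = 0.997 by limma). With the replicate block, the interval narrowed to -0.23 to 0.16. A second probe that starts 172 bases upstream gave 0.05 (adjusted P = 0.995 by limma) and the last, at position 376, gave 0.14 (adjusted P = 0.986), so that the sign of the difference varied among the probes.

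*Mgll* differed between the slides, whichever group its arrays belonged to. On the second slide the brightest probe was 1.43-fold higher than on the first (log2 difference 0.52, adjusted P = 0.0274 by limma), and the probe next to it 1.48-fold higher (0.57, adjusted P = 0.0106). In both, all 4 arrays of the second slide lay above all 4 of the first. The probe at position 376 was 1.26-fold higher (0.33, adjusted P = 0.0555) with overlap of the slides. The slides differed by this test in 23.6% of all probes and did not overlap in 24.2%, so that *Mgll* shared this feature with many genes. Of the other tested genes of the set, *Plin2* differed between slides by -0.22 (adjusted P = 0.136), *Pnpla2* by -0.14 (0.216), *Lipe* by 0.16 (0.388) and *Dgat1* by -0.05 (0.750), and none of these passed the test.

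*Dgat1* encodes the acyltransferase of the endoplasmic reticulum that esterifies mainly fatty acids taken up from outside or set free from stores. Its probe (ILMN_2807284, position 1530 of NM_010046.2) was detected on all 8 arrays, with bead intensities between 73.1 and 96.6. The normalized log2 intensity was 5.91, 6.14, 5.73 and 5.95 on control arrays 1 to 4 and 5.80, 6.07, 6.09 and 5.93 on Ac-LDL arrays 1 to 4. The groups overlapped, and only the pair of replicate 3 was higher with Ac-LDL. The log2 fold change was 0.04 (standard error 0.11, 95% interval -0.21 to 0.29, adjusted P = 0.994 by limma), at -0.09 on the first slide and 0.17 on the second.

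*Dgat2* encodes the second acyltransferase, which works at the droplet surface and is linked to newly made fatty acids. Its 1 probe was detected on 1 of 8 arrays, control replicate 1, with a bead intensity of 59.8 and a detection P value of 0.0128. The other arrays lay between 44.4 and 50.7, and the 4 Ac-LDL arrays between 45.0 and 48.9. *Dgat2* was not tested, and a difference at this level would not have been detectable.

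**Figure D3:**
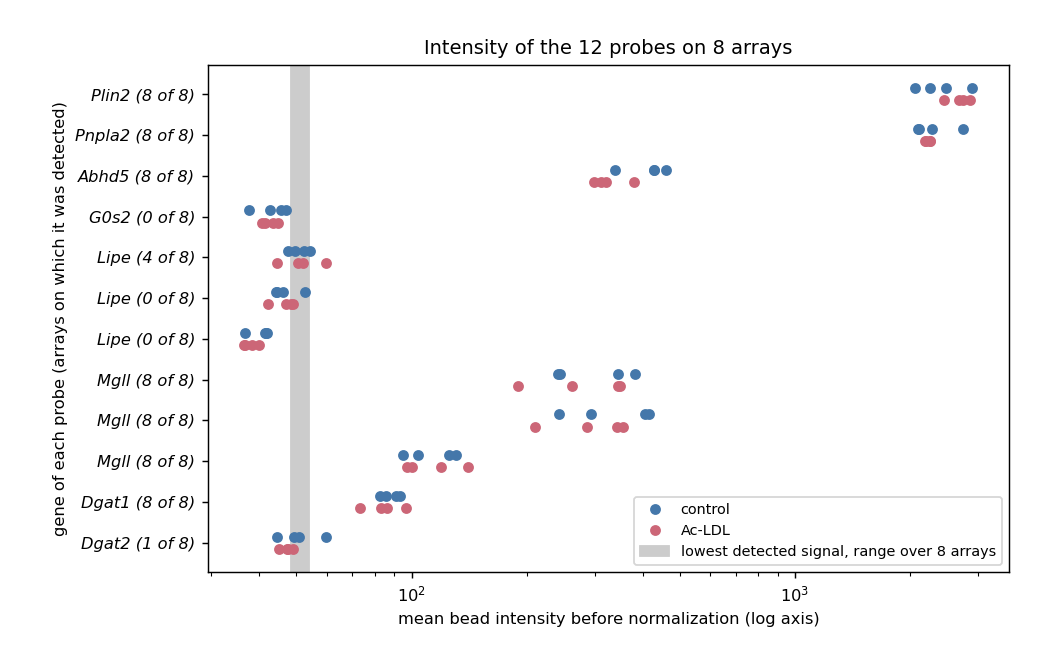
Bead intensity before normalization of all 12 probes on the 4 control (blue) and 4 Ac-LDL (red) arrays, on a log axis, with the number of arrays on which each was detected. The grey band is the range, over the 8 arrays, of the lowest intensity of a detected probe (48.4 to 53.8); *G0s2*, *Dgat2* and all *Lipe* probes lie around it or to its left, while the other genes lie to its right on every array.

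A further 45 genes of droplet coat, droplet formation, triglyceride synthesis and lipolysis were examined in the same fit, and 27 of them were tested. 0 of the 27 were called in any of the 3 fits, and the lowest adjusted P values by limma were 0.943 without a block, 0.258 with replicates and 0.339 with slides as the block. At an unadjusted P value under 0.05 the fit without a block found 1, *Spart*. By the brightest tested probe of each gene, the log2 fold changes ran from -0.29 to 0.29 with a median of 0.02, 15 above and 12 below 0. All of these were under 1.3-fold in either direction, whereas a dimmer probe of *Hilpda* lay outside this limit at 0.41. In droplet formation 9 of 10 genes were tested, 5 above and 4 below 0. In synthesis it was 10 of 15, 5 on either side, and in lipolysis 7 of 13, 5 above and 2 below. Among the genes not tested were *Pnpla3*, a lipase-like droplet protein, and *Abhd6*, a second monoglyceride lipase, both detected on no array.

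The largest positive values among these were those of *Lipa*, *Spart* and *Hilpda*. *Lipa* encodes lysosomal acid lipase, which frees cholesterol and fatty acids from lipoproteins taken up by the cell, and its log2 fold change was 0.29 (adjusted P = 0.961 by limma), at 0.57 on the first slide and 0.01 on the second. *Spart* encodes spartin, a protein of droplet turnover, and had 0.25 (standard error 0.11, adjusted P = 0.943), with 0.32 and 0.19 on the slides and above 0 in 4 of 4 pairs. A second probe of *Spart* had -0.03, and 11.5% of all probes were above 0 in 4 of 4 pairs. *Hilpda* encodes a small droplet protein that inhibits adipose triglyceride lipase, as G0S2 does, and had 0.22 (adjusted P = 0.961), again above 0 in 4 of 4 pairs and at 0.07 and 0.36 on the slides, and its second probe had 0.41 (adjusted P = 0.946). Like *Plin2*, *Hilpda* had the larger difference on the second slide. The most negative values were those of *Pcyt1a*, *Agpat4* and *Plin3*. *Pcyt1a*, the rate-setting enzyme of phosphatidylcholine synthesis, which supplies the droplet's surface layer, had -0.29 (adjusted P = 0.963), and *Agpat4*, an acyltransferase that makes phosphatidic acid, had -0.11 (adjusted P = 0.976).

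**Figure D4:**
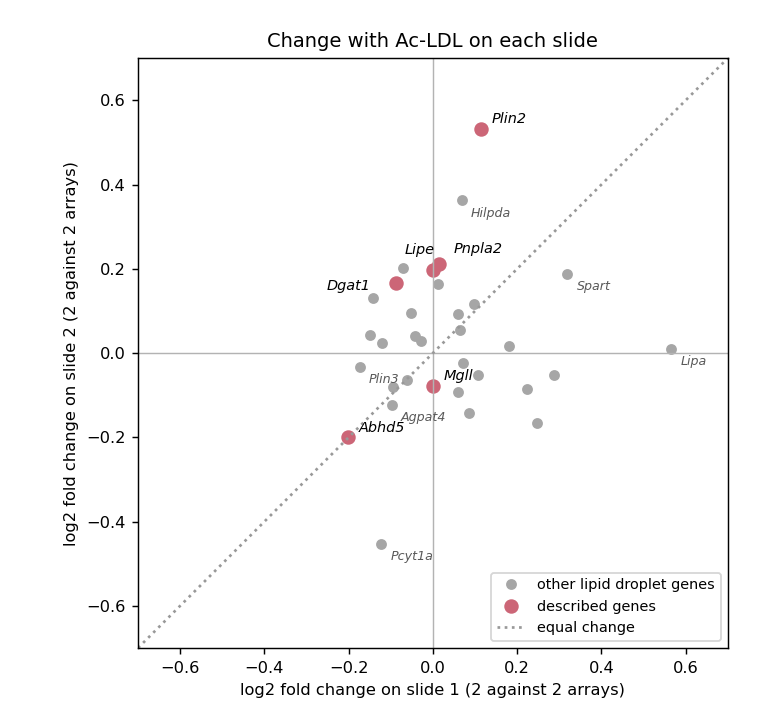
Log2 fold change with Ac-LDL on the first slide (horizontal) against that on the second (vertical), each from 2 against 2 arrays, for the 6 tested genes described here (red) and 27 other lipid droplet genes (grey), with the line of equal change dotted. *Abhd5* lies on the line at -0.20, whereas *Plin2* lies well above it at 0.11 and 0.53.

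After each slide's mean was subtracted, the genes whose values over the 8 arrays were most like those of *Plin2* were *Bzrap1* (Pearson r = 0.983), *Ccrk* (0.980), *Il18bp* (0.978), *Afg3l1* (0.971) and *Etfb* (0.968). These are the highest of 17122 probes over 8 arrays that share their slides and normalization, and they are given as a description. None of the 5 was called without a block (adjusted P values of 0.854 to 0.979 by limma) or with the replicate block (0.207 to 0.442). Among the genes of the set, *Plin2* had an r of 0.784 with *Pnpla2* and -0.724 with *Abhd5*, and *Abhd5* had -0.597 with *Pnpla2*, each over the same 8 arrays and without a test. The difference between the groups was not subtracted, so that every r of this paragraph also carries it.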

How the data were processed

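Bead intensity, the bead standard error (another deposited unit), the number of beads (a whole count, as deposited) and a detection p-value were deposited by the authors for 45281 probes on each of 8 arrays. Per the labels, BeadStudio was used. The intensities are linear, without background correction or normalization by the authors. The authors' normalized values from GeneSpring GX were not used here, and their method is not given in the sources used here. From the deposited intensities, log2 values were computed in R 4.3.3 with limma 3.58.1 (neqc with negative controls inferred from the detection p-values, offset 16, quantile normalization). A probe was tested where 4 or more of the 8 arrays had a detection p-value no higher than 0.05, by lmFit and eBayes, 4 Ac-LDL against 4 control arrays without covariates, with Benjamini-Hochberg adjustment at 0.05 over 17122 probes. The procedure was tested on simulated data.

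The members and lists were chosen with earlier results of these data known. Each gene was described by its brightest tested probe (highest mean log2 intensity). Of the other lists, genes called in any of the fits without a block, with the replicate block or with the slide block, and otherwise the 3 largest rises and 3 largest falls, were named. For *Plin2*, the 5 symbols with the highest slide-centred r were named. Arrays of the same replicate number deviated together (r of 0.579, 0.479, 0.468 and 0.629 over probes for replicates 1 to 4), so that 1 alternative blocked on it. On the same slide, arrays of unlike number also had r of 0.188 to 0.447, so that much of this agreement goes along with the slide. Across slides r was -0.318 or lower. Deviations were taken from each group's mean, which by itself pulls these values below 0 when those on the same slide are above 0. Exact permutation tests used all 70 assignments. Promoter windows were those of RefSeq (GRCm38.p6). The number of arrays limits the precision.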

Additional observations from a re-analysis of the deposited data

How the results depend on the processing

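No gene of the set and none of the 27 other lipid droplet genes was called under any of 25 alternatives. The log2 fold changes of *Plin2* (0.11 to 0.53), *Pnpla2* (0.02 to 0.21) and *Abhd5* (-0.25 to -0.16) kept their direction in all 25. Each of these used values normalized between arrays. Over all probes, 7 were called without a block, 76 with the replicate block, 55 with the slide block, 14 after a shift to the 75th percentile, 16 with an intensity trend and robust prior, 14 within the first slide and 16 within the second, and 0 by the methods' t-test (1039 at an unadjusted p under 0.05) and without a filter, which tests 45281 probes. Leaving out arrays or replicate pairs gave 0 to 15 probes, with 0 in 8 of 12 such fits and 15 without control replicate 2. *Mgll* turned to 0.049 as the mean of its probes and to 0.00086 within the first slide, and ran from -0.24 to 0.11 on leaving out arrays. *Dgat1* was -0.088 within the first slide and ran from -0.065 to 0.11, turning without control replicate 3. *Lipe* ran from -0.023 to 0.24, turning without Ac-LDL replicate 4, and was not tested when detection on all 8 arrays was asked. The median of the 6 genes was 0.18 within the second slide. The cause of these shifts was not tested. The replicate block changed no call of a gene described here. Detection limits *G0s2*, *Dgat2* and *Lipe*, whose probes stood at or under the edge of detection.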
